A study of Mus musculus with 15 samples.

Results

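The Hox cluster genes, the homeobox genes of the HoxA, HoxB, HoxC and HoxD clusters, were followed across 5 groups of C2C12 cells with raised or lowered activity of the transcription factor MLX. Members were all rows of the table whose symbol is Hox, a cluster letter and a paralogue number, 39 of 23352 genes, with no use of their values. They comprise 11 genes of HoxA, 10 of HoxB, 9 of HoxC and 9 of HoxD, which lie on mouse chromosomes 6, 11, 15 and 2. C2C12 is a mouse line of muscle precursor cells (myoblasts) that was derived from adult thigh muscle. Every group carried a lentiviral construct. The groups were a dominant-negative MLX (MLX-DN), wild-type MLX (MLX-WT), a short hairpin RNA that targets Mlx (MLX shRNA), a non-targeting shRNA (NT shRNA, the control of MLX shRNA) and a vector that expresses only GFP (GFP control, the control of MLX-DN and MLX-WT). Each group had 3 libraries, 15 in all, made from poly(A) RNA with a stranded kit. The labels do not say whether the 3 came from separate cultures or whether transduced cells were pooled or cloned, so the p-values may reflect technical spread alone.

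Hox proteins are transcription factors with a homeodomain that give cells of the embryo their position along the head-to-tail and limb axes. Within a cluster the genes of low paralogue number are active toward the head and those of high number toward the tail and the limb tip, in the order in which they lie on the chromosome. The pattern that a cell has taken up is held afterwards by Polycomb and trithorax proteins, and cultured cells from different body sites are known to keep different sets of active Hox genes. Genes of the HoxC cluster with a high number are a known mark of hindlimb cells, and those of HoxA and HoxD shape the limb itself.

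Mlx stood at 394 ± 8.76 FPKM in MLX-DN, 644 ± 11.6 in MLX-WT, 3.21 ± 0.645 in MLX shRNA, 17.1 ± 0.778 in NT shRNA and 17.1 ± 0.516 in the GFP control (SD, n = 3 each), where FPKM is fragments per kilobase of transcript, scaled to the size of the library. Estimated depth was 36.9 to 82.6 M reads per library. Among 9 myoblast markers, 8 exceeded 1 FPKM, and their summed level was 2530 to 2810 FPKM. The summed level of 5 fibroblast markers was 2.48 to 3 FPKM in MLX-DN, 5.77 to 6.13 in MLX-WT, 1.6 to 1.8 in MLX shRNA, 6.77 to 7.33 in NT shRNA and 4.19 to 4.42 in the GFP control, with Tcf21 at 0. Its members did not move together: Dpt averaged 4.65 FPKM in NT shRNA and 0.439 in the GFP control, but Pi16 0.261 and 1.29, and Pdgfra 2.06 and 2.56. The 4 immune markers summed to 5.29 to 5.64 FPKM in MLX-DN and to 0.784 to 2.11 FPKM in the other groups. That of MLX-DN was mostly Ptprc (mean 4.55 FPKM, at most 0.00989 in any library of another group), while Cd68 had its lowest mean there (0.871 FPKM) and Cd3e was at 0. The 4 neural markers, of which Tubb3 was the single one over 1 FPKM, summed to 12.8 to 13.7 FPKM in MLX-DN, 7.71 to 8.04 in MLX-WT, 21 to 23.7 in MLX shRNA, 17.1 to 17.5 in NT shRNA and 12.1 to 12.4 in the GFP control. The 4 epithelial markers summed to 0.644 to 1.86 FPKM, with none over 1 FPKM, the 4 endothelial markers to at most 0.234 FPKM and the 3 adipocyte markers to at most 0.0516 FPKM. The part of other cell types in the results was not tested.

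The cells expressed genes of HoxA and HoxC with a high paralogue number, lacked HoxD, and had HoxB RNA at low levels that differed between groups. Of the 39 members 15 reached 1 FPKM in at least 3 libraries and were tested, which were 7 HoxA genes, 1 HoxB gene and 7 HoxC genes. Hoxc10 was the highest, with a mean of 16.2 FPKM over all libraries, followed by Hoxa11 at 10.6, Hoxa10 at 10.4 and Hoxc11 at 9.79 FPKM. The ranges of Hoxa11 and Hoxa10 over the 15 libraries, 9.59 to 12.9 and 9.04 to 11.5 FPKM, overlapped. Paralogues 9 to 13 made up 75.2 ± 0.907% of all Hox FPKM in MLX-DN, 79.2 ± 0.380% in MLX-WT, 78.6 ± 0.389% in MLX shRNA, 75.4 ± 0.685% in NT shRNA and 82.4 ± 0.497% in the GFP control (SD, n = 3 each). The order of the 39 members by group mean was similar in every group, with Spearman's rho of 0.928 to 0.985 over the 10 pairs of groups, a description across genes that share libraries.

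**Figure D1:**
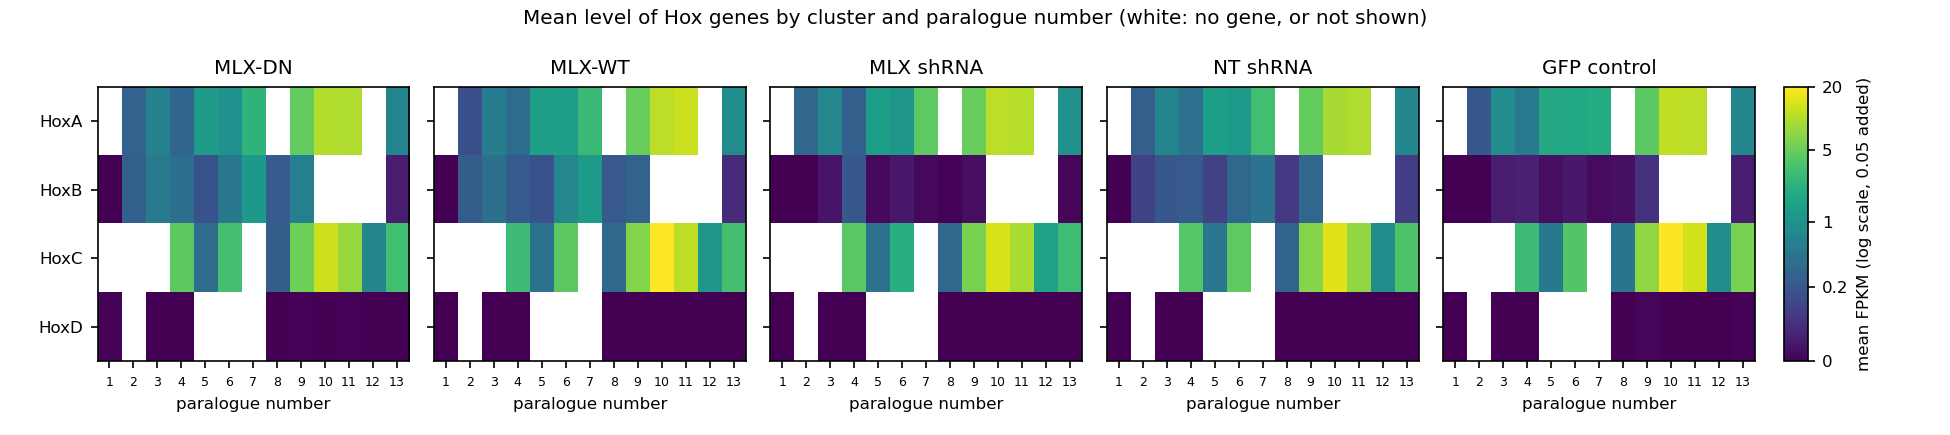
Mean FPKM of Hox genes (colour, log scale) by cluster (rows) and paralogue number (columns) in the 5 groups, n = 3 libraries each, with white where the mouse has no gene or its value is not shown. HoxA and HoxC were brightest at paralogues 9 to 11 in every group, HoxD was dark, and the HoxB row was lit in MLX-DN, MLX-WT and NT shRNA but dark in MLX shRNA, apart from Hoxb4, and in the GFP control.

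The HoxB cluster differed most between groups. Its summed level was 3.76, 4.07 and 3.93 FPKM in MLX-DN, 3.95, 3.41 and 3.52 in MLX-WT, 0.220, 0.316 and 0.335 in MLX shRNA, 1.90, 1.89 and 1.97 in NT shRNA and 0.289, 0.158 and 0.226 in the GFP control. The cluster was thus expressed in all 9 libraries of MLX-DN, MLX-WT and NT shRNA, and at a trace in all 6 libraries of MLX shRNA and the GFP control. NT shRNA and the GFP control, both controls, fell on opposite sides. The sum was 17.5-fold higher in MLX-DN than in the GFP control, 16.2-fold higher in MLX-WT than in the GFP control, and 8.56-fold higher in NT shRNA than in the GFP control. In MLX shRNA it was 0.151 times that of NT shRNA. Libraries did not overlap in any of these comparisons, and the exact permutation test (two-sided, 3 against 3) gave p = 0.1, the smallest it can give. MLX-DN and MLX-WT overlapped (ratio 1.08, exact p = 0.3). These are bulk libraries, in which fewer cells with the cluster on and less RNA per cell cannot be told apart.

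The promoters of 3 members are shown because their genes took the different courses described next. Hoxb8 followed the pattern of its cluster, Hoxb4 kept its level in MLX shRNA, and Hoxa7 was present in every library. They run from 250 bases before to 50 bases after the start, 5′ to 3′ on the gene's own strand, from RefSeq on GRCm38.p6. Capitals mark TTTATG or its reverse complement CATAAA, the core of the site bound by the caudal-type factors Cdx1, Cdx2 and Cdx4, which activate Hox genes in the embryo.
Hoxb8 promoter, chr11:96281655-96281954, plus strand: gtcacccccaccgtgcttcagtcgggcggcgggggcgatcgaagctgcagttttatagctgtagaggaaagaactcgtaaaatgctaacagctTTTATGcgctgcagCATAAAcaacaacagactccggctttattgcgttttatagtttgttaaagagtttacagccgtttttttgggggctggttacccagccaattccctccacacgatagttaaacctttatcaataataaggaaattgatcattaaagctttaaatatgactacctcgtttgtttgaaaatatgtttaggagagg
Hoxb4 promoter, chr11:96318017-96318316, plus strand: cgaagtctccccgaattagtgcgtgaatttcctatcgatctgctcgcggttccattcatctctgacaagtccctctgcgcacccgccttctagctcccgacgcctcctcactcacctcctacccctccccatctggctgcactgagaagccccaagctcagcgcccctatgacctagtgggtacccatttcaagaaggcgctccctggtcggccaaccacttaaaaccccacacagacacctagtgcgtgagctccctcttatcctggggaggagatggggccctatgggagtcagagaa
Hoxa7 promoter, chr6:52218524-52218823, minus strand: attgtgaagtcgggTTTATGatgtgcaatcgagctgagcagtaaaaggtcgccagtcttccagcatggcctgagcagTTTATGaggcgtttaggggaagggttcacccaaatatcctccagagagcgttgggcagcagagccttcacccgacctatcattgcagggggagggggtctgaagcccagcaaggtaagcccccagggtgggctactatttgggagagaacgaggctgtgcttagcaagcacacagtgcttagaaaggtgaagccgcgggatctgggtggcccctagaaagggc
TTTATG, searched on both strands, was found in 11.9% of 32851 promoters of this length and in 5 of the 22 Hox genes in the table, namely Hoxa7, Hoxb8, Hoxd3, Hoxd4 and Hoxd11. CACGTG, the core of the E box that MLX binds with its partners and its own reverse complement, was found in 7.15% of promoters and in 5 Hox genes, all of HoxD (Hoxd1, Hoxd4, Hoxd10, Hoxd11 and Hoxd13). Cdx2 and Cdx4 were listed at 0 FPKM in all 15 libraries, and Cdx1 reached at most 0.0604 FPKM.

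Within the cluster, Hoxb7 was the highest gene and the single one that could be tested after the filter, which it passed through the groups where it was high. Hoxb7 had 1.02, 1.11 and 1.37 FPKM in MLX-DN, 1.66, 1.17 and 0.979 in MLX-WT, 0.0209, 0 and 0 in MLX shRNA, 0.456, 0.514 and 0.350 in NT shRNA and 0.0285, 0 and 0 in the GFP control. In reads, estimated from the steps between FPKM values, this was 86, 75 and 83 in MLX-DN, 142, 118 and 67 in MLX-WT, 1, 0 and 0 in MLX shRNA, 23, 36 and 25 in NT shRNA and 3, 0 and 0 in the GFP control. Per depth, the summed reads were 82.0 times those of the GFP control in MLX-DN (95% interval 27.7 to 400.0) and 92.2 times in MLX-WT (31.3 to 449). In MLX shRNA they were 0.0142 times those of NT shRNA (0.000354 to 0.0810). These are exact conditional intervals and cover counting error only.

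The other HoxB genes of paralogues 2 to 9 lay below the filter, and all of them but Hoxb4 showed the same split. Hoxb6 had 0.448 to 0.528 FPKM in MLX-DN, 0.631 to 0.811 in MLX-WT, 0 to 0.0611 in MLX shRNA, 0.305 to 0.343 in NT shRNA and 0 to 0.0548 in the GFP control. Hoxb2, which patterns the hindbrain, had 0.221 to 0.307 FPKM in MLX-DN, 0.219 to 0.259 in MLX-WT, 0 in every MLX shRNA library, 0.0779 to 0.142 in NT shRNA and 0 in every GFP control library. With a floor of 3 reads per library, averaged over the group, Hoxb2 was at least 7.19-fold higher in MLX-DN and at least 6.51-fold higher in MLX-WT than in the GFP control, and at least 2.44-fold lower in MLX shRNA than in NT shRNA. Over Hoxb3, Hoxb5 and Hoxb8 the libraries of MLX-DN, MLX-WT and NT shRNA ranged from 0.0685 to 0.623 FPKM, against 0 to 0.0356 FPKM in MLX shRNA and the GFP control. Hoxb9 stood at 0.525 to 0.729 FPKM in MLX-DN, 0.265 to 0.302 in MLX-WT, 0.0071 to 0.0200 in MLX shRNA, 0.242 to 0.369 in NT shRNA and 0.0488 to 0.0959 in the GFP control, so here the GFP control kept a low level. Hoxb13, set apart from the rest of the cluster, reached 0.115 FPKM at most and Hoxb1 was listed at 0 in all 15 libraries.

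Hoxb4, known from blood stem cells, was the exception in MLX shRNA. It had 0.349, 0.409 and 0.387 FPKM in MLX-DN, 0.241, 0.235 and 0.227 in MLX-WT, 0.165, 0.189 and 0.276 in MLX shRNA, 0.157, 0.247 and 0.270 in NT shRNA and 0.0423, 0.0171 and 0.0505 in the GFP control. MLX shRNA and NT shRNA overlapped, and their log2 difference was -0.01 (limma adjusted p = 0.925 in the fit of all genes). In reads, Hoxb4 gave 16, 18 and 37 in the MLX shRNA libraries, out of 17, 22 and 40 over the 6 HoxB genes whose reads could be recovered. The same 6 genes gave 291, 232 and 224 reads in MLX-DN, 331, 319 and 240 in MLX-WT, 79, 128 and 126 in NT shRNA and 24, 6 and 7 in the GFP control. The deepest of the 15 libraries, GFP control replicate 1 at 82.6 M reads, was among the low ones.

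**Figure D2:**
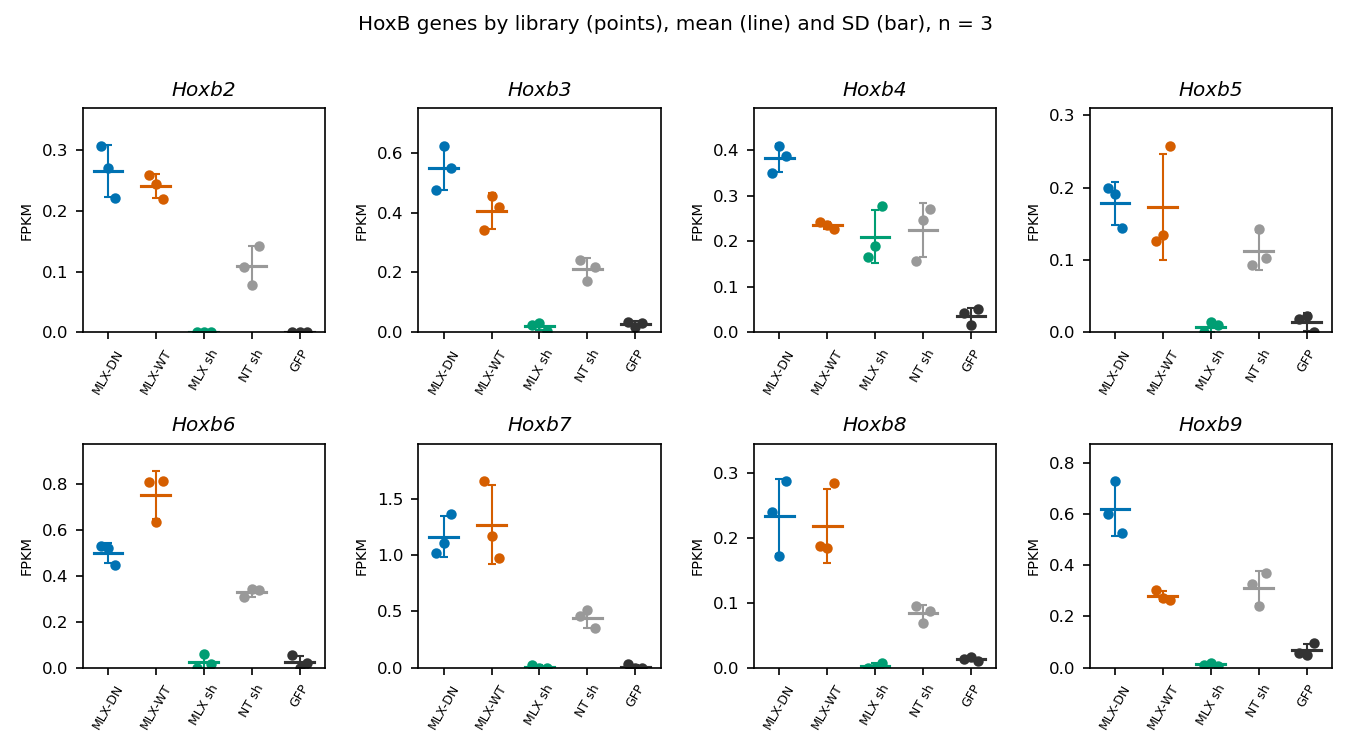
FPKM (vertical axis, linear, from 0) of Hoxb2 to Hoxb9 in each library (points), with the mean (line) and SD (bar) of the 3 libraries of each group. Each gene but Hoxb4 was near 0 in MLX shRNA, and each was near 0 in the GFP control, where Hoxb9 kept 0.0488 to 0.0959 FPKM.

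In a limma fit of all 23352 genes without the filter, 8 of the 10 HoxB genes were called higher in MLX-DN than in the GFP control, at an adjusted p under 0.05, where 18.6% of all genes were. The same 8, Hoxb2 to Hoxb9, were called higher in MLX-WT, where 16.4% of all genes were. In MLX shRNA 8 were called lower than in NT shRNA (21.6% of all genes), with Hoxb13 in the place of Hoxb4. In NT shRNA 8 were called higher than in the GFP control (20.3% of all genes), with Hoxb13 in the place of Hoxb8, whose adjusted p was 0.0552 by limma. Between MLX-DN and MLX-WT the fit called 4 of 10, of 40.9% of all genes, with Hoxb3, Hoxb4 and Hoxb9 higher in MLX-DN and Hoxb6 lower. The first 2 counts were the same without any 1 of the 15 libraries. In MLX shRNA Hoxb8 (adjusted p = 0.0315) lost its call without any 1 of MLX shRNA replicates 1 to 3 and NT shRNA replicates 1 and 3, and between the controls Hoxb5 lost its call without NT shRNA replicate 2 and Hoxb8 gained one without MLX-WT replicate 3, MLX-DN replicate 2 or MLX-DN replicate 3. With an offset of 0.1 in place of 2, the counts were 8, 8, 8 and 9 in the first 4 of these comparisons. Centring each library on its median moved them to 10 higher, 10 higher, 4 lower with 1 higher, and 8 higher, a setting that shifts values of 0 as well and also called Hoxb1, at 0 in every library. For the offset of 0.1 and for the centring no share of all genes is given, so these counts have no background beside them. Hoxb3 shares 52.9% of its exon bases with Hoxb3os on the opposite strand and Hoxb2 shares 27.3%, so their values are uncertain to that extent, since no source used here says whether the authors counted by strand.

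HoxC held the largest share of Hox FPKM, 51.5 ± 0.263% in MLX-DN, 55.4 ± 0.314% in MLX-WT, 52.8 ± 1.28% in MLX shRNA, 55.7 ± 0.687% in NT shRNA and 60.8 ± 0.717% in the GFP control. Hoxc10, which is active in lumbar segments and the hindlimb, had 12.4, 12.7 and 12.6 FPKM in MLX-DN, 19.5, 19.1 and 20.8 in MLX-WT, 14, 14 and 13.6 in MLX shRNA, 14.9, 15.5 and 14.9 in NT shRNA and 19.5, 19.0 and 20 in the GFP control. MLX-WT and the GFP control overlapped at the top, and all MLX-DN libraries lay lowest. Hoxc10 was lower in MLX-DN than in the GFP control by -0.56 on the log2(FPKM + 2) scale (SE 0.0305, limma adjusted p = 1.04e-10) and lower than in MLX-WT by -0.58 (adjusted p = 1.67e-10). Against NT shRNA it stood at -0.23 in MLX-DN and 0.35 in MLX-WT (adjusted p = 7.52e-06 and 6.34e-08), and it shares 8.70% of its exon bases with Hoxc5 on the same strand. Hoxc11, also of the lumbosacral region and the hindlimb, had 7.78, 8.25 and 7.76 FPKM in MLX-DN, 11.2, 10.6 and 10.8 in MLX-WT, 8.97, 10.3 and 8.61 in MLX shRNA, 7.60, 8.54 and 6.73 in NT shRNA and 13.5, 13.6 and 12.6 in the GFP control. The GFP control was highest, and MLX-DN and NT shRNA overlapped at the low end, so the sign of each difference in Hoxc11 depended on the control. MLX-DN stood at -0.61 (adjusted p = 1.48e-07) against the GFP control and at 0.05 (adjusted p = 0.485) against NT shRNA, MLX-WT at -0.24 and 0.42, and MLX shRNA at 0.23 against NT shRNA and -0.43 against the GFP control.

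Hoxc13, known for its part in hair and nails, had 3.34, 3.14 and 3.22 FPKM in MLX-DN, 3.42, 3.37 and 3.27 in MLX-WT, 3.09, 2.92 and 3.21 in MLX shRNA, 3.48, 3.99 and 3.90 in NT shRNA and 6.15, 5.94 and 5.92 in the GFP control. All 12 other libraries lay below the GFP control. It was lower by -0.61 in MLX-DN and -0.58 in MLX-WT than in the GFP control and by -0.19 in MLX shRNA than in NT shRNA, with limma adjusted p of 1.96e-10, 7.57e-10 and 0.000189. Against the other control the 3 values were -0.14, -0.11 and -0.66, each still called. NT shRNA itself was lower than the GFP control by -0.47 (adjusted p = 8.34e-09).

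Hoxc6, of thoracic segments, had the largest fall of the 15 tested members in MLX shRNA on the log2(FPKM + 2) scale, though as a ratio of FPKM that of Hoxb7 was larger. It had 3.40, 3.44 and 3.16 FPKM in MLX-DN, 4.36, 4.41 and 4.27 in MLX-WT, 1.86, 2.42 and 2.17 in MLX shRNA, 4.59, 4.15 and 4.67 in NT shRNA and 4.23, 3.58 and 4.03 in the GFP control. All MLX shRNA libraries lay below every other library, and the log2 difference was -0.64 from NT shRNA (SE 0.0499, limma adjusted p = 1.66e-08) and -0.52 from the GFP control. The mean of MLX shRNA was 0.482 times that of NT shRNA. Hoxc4 stood apart in another way, with 4.26, 4.52 and 4.34 FPKM in MLX-DN, 3.08, 2.71 and 3.08 in MLX-WT, 4.64, 4.01 and 4.11 in MLX shRNA, 4.27, 4.06 and 3.91 in NT shRNA and 3.10, 3.09 and 2.87 in the GFP control. MLX-DN, MLX shRNA and NT shRNA formed one range and MLX-WT with the GFP control a lower one. Its log2 difference in MLX-DN was 0.34 from the GFP control (adjusted p = 1.59e-06) and 0.07 from NT shRNA (adjusted p = 0.16).

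Hoxc9, a regulator of thoracic motor neurons, had 5.40, 5.39 and 5.22 FPKM in MLX-DN, 6.83, 6.23 and 6.63 in MLX-WT, 5.84, 6.10 and 6.05 in MLX shRNA, 6.40, 6.93 and 6.86 in NT shRNA and 6.88, 8.06 and 7.14 in the GFP control. MLX-DN lay below both controls, by -0.35 and -0.25 log2 (adjusted p = 1.49e-06 and 8.43e-05). Hoxc12 was low and scattered, at 0.589 to 0.778 FPKM in MLX-DN, 1 to 1.34 in MLX-WT, 1.01 to 1.89 in MLX shRNA, 0.896 to 0.968 in NT shRNA and 0.676 to 1.06 in the GFP control. Below the filter, Hoxc5 ranged from 0.359 to 0.550 FPKM and Hoxc8 from 0.223 to 0.528 over the 15 libraries, both between expressed neighbours.

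**Figure D3:**
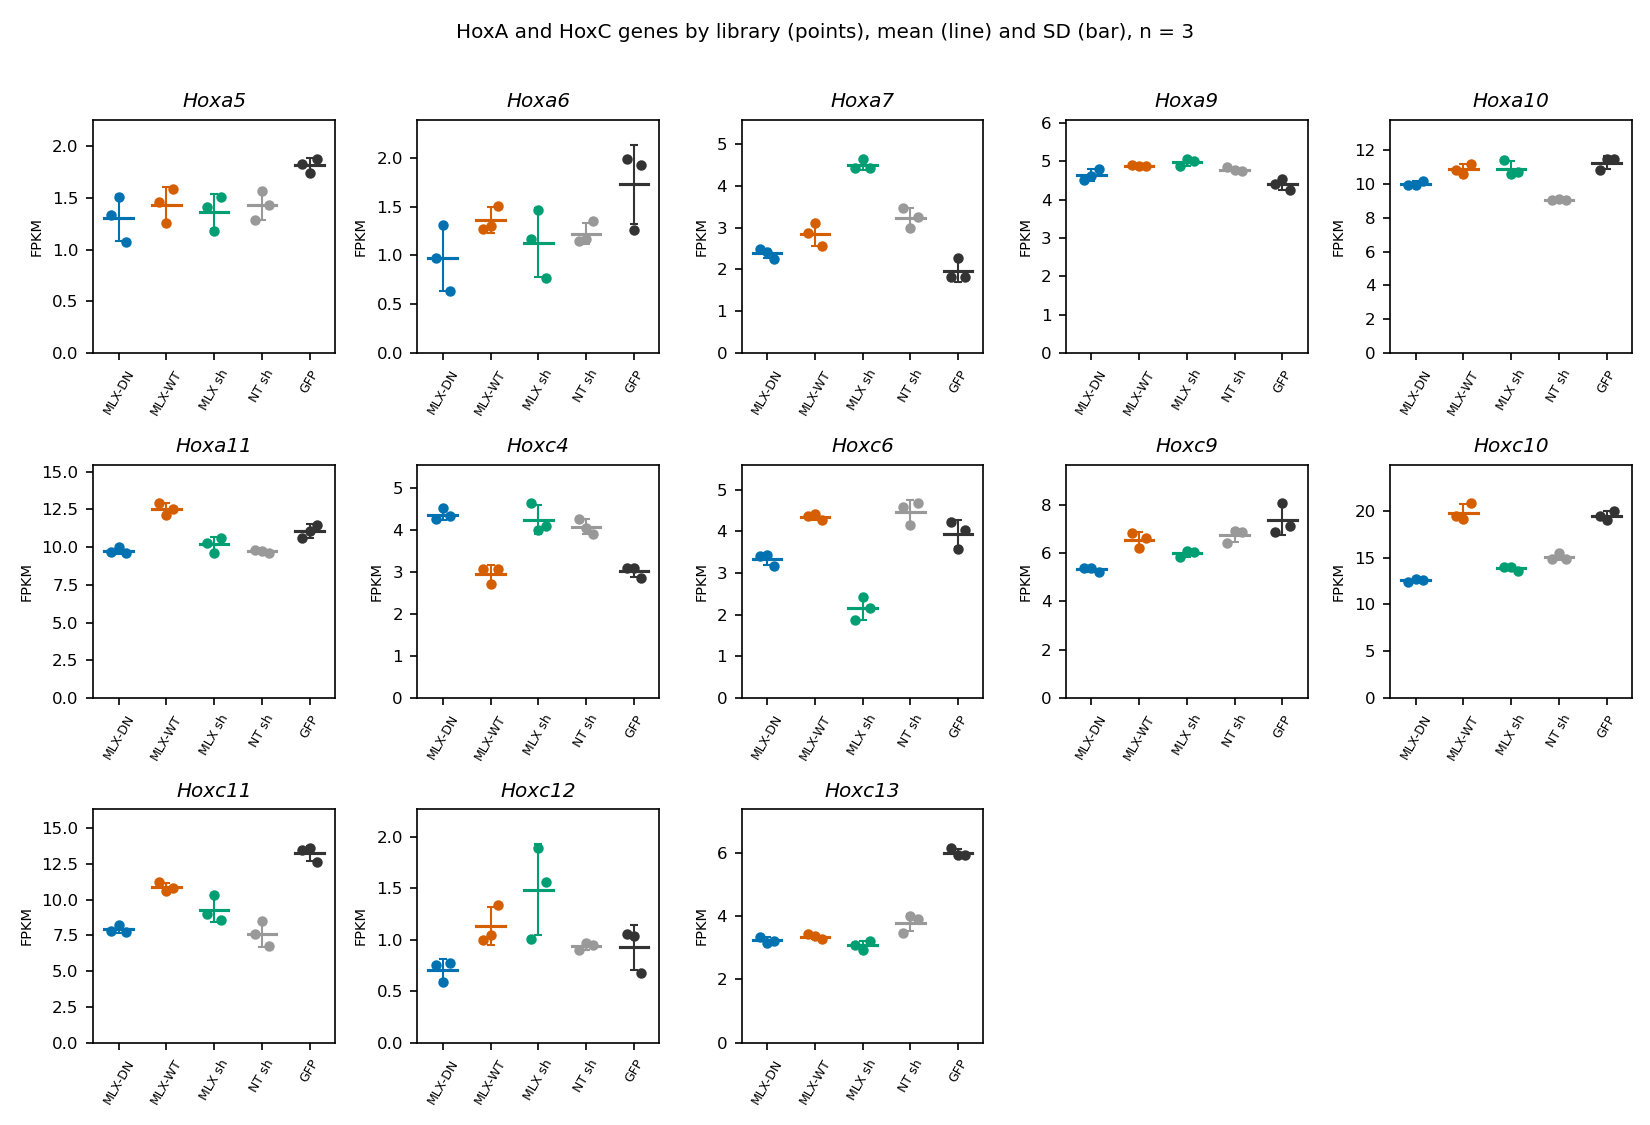
FPKM (vertical axes, linear, from 0) of 13 tested HoxA and HoxC genes in each library (points), with the mean (line) and SD (bar) of the 3 libraries of each group. The fall of Hoxc6 in MLX shRNA to 1.86 to 2.42 FPKM, the high Hoxa7 there at 4.42 to 4.65 FPKM and the high Hoxc13 of the GFP control at 5.92 to 6.15 FPKM stand out.

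HoxA varied least of the 3 expressed clusters, with a summed level of 31.9 ± 0.752 FPKM in MLX-DN, 36.5 ± 0.621 in MLX-WT, 36.2 ± 0.710 in MLX shRNA, 32.6 ± 0.0540 in NT shRNA and 35.2 ± 0.808 in the GFP control. Hoxa9, known from blood progenitors and leukaemia, changed least, at 4.51, 4.63 and 4.81 FPKM in MLX-DN, 4.90, 4.88 and 4.88 in MLX-WT, 4.87, 5.07 and 5.01 in MLX shRNA, 4.84, 4.78 and 4.74 in NT shRNA and 4.41, 4.53 and 4.25 in the GFP control. Its highest group mean was 1.13 times its lowest. Hoxa10, whose paralogue group suppresses ribs in the lumbar spine, had 9.92, 9.96 and 10.2 FPKM in MLX-DN, 10.8, 10.6 and 11.2 in MLX-WT, 11.4, 10.6 and 10.7 in MLX shRNA, 9.05, 9.09 and 9.04 in NT shRNA and 10.8, 11.5 and 11.5 in the GFP control. Here NT shRNA was lowest and did not overlap any other group. MLX shRNA was above it by 0.22 log2 (adjusted p = 9.87e-06) and at -0.04 from the GFP control (adjusted p = 0.265).

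Hoxa7 had the widest range, relative to its level, among the tested HoxA genes that were over 2 FPKM on average. It stood at 2.48, 2.42 and 2.26 FPKM in MLX-DN, 2.87, 3.10 and 2.55 in MLX-WT, 4.43, 4.65 and 4.42 in MLX shRNA, 3.46, 2.98 and 3.26 in NT shRNA and 1.81, 2.27 and 1.83 in the GFP control. The MLX shRNA libraries lay above all others, by 0.31 log2 from NT shRNA (adjusted p = 4.55e-05) and 0.71 from the GFP control. MLX-WT was above the GFP control by 0.29 (adjusted p = 0.000109) and at -0.11 from NT shRNA (adjusted p = 0.053), and 20.4% of the exon bases of Hoxa7 lie opposite Hoxaas3. Hoxa11, which shapes the forearm and lower leg and the uterus, had 9.68, 10 and 9.6 FPKM in MLX-DN, 12.9, 12.1 and 12.5 in MLX-WT, 10.3, 9.63 and 10.6 in MLX shRNA, 9.83, 9.76 and 9.59 in NT shRNA and 10.6, 11.1 and 11.5 in the GFP control. MLX-WT lay above all other libraries, by 0.15 log2 from the GFP control (adjusted p = 0.00101) and 0.31 from NT shRNA.

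Hoxa5, of the neck and lung, had 1.34, 1.51 and 1.07 FPKM in MLX-DN, 1.46, 1.26 and 1.59 in MLX-WT, 1.41, 1.18 and 1.51 in MLX shRNA, 1.29, 1.57 and 1.43 in NT shRNA and 1.83, 1.74 and 1.88 in the GFP control. The GFP control alone lay above the rest, which overlapped. Hoxa6 had 0.977, 1.31 and 0.635 FPKM in MLX-DN, 1.27, 1.30 and 1.51 in MLX-WT, 1.17, 1.46 and 0.766 in MLX shRNA, 1.15, 1.17 and 1.35 in NT shRNA and 1.99, 1.26 and 1.93 in the GFP control, with all groups overlapping at least one other. Below the filter, Hoxa2 ranged from 0.144 to 0.349 FPKM over the 15 libraries, Hoxa3 from 0.481 to 0.967, Hoxa4 from 0.229 to 0.704 and Hoxa13, the gene of the limb tip and the genital region, from 0.580 to 1.10.

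HoxD was silent in every group. None of its 9 genes exceeded 0.0107 FPKM in any library, and Hoxd3, Hoxd4, Hoxd8 and Hoxd10 were listed at 0 in all 15. Over the 7 HoxD genes with 1 transcript length the libraries held 6 estimated reads in all, at most 1 per gene and library. For the genes with 1 length that were at 0 throughout, the floor of 3 reads allows up to 0.0122 to 0.0448 FPKM per library, depending on depth and length. The genes that flank the cluster were expressed, with Mtx2 at 61.0 ± 0.609 FPKM in MLX-DN, 46.7 ± 0.571 in MLX-WT, 50.5 ± 1.87 in MLX shRNA, 49.0 ± 0.183 in NT shRNA and 47.4 ± 0.495 in the GFP control (SD, n = 3 each).

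Summed over all members, Hox FPKM was 73.3, 75.5 and 72.9 in MLX-DN, 90.9, 87.5 and 91.4 in MLX-WT, 77.2, 78.4 and 76.5 in MLX shRNA, 77.3, 79.3 and 77.4 in NT shRNA and 90, 91.2 and 90 in the GFP control. MLX-DN was lower than the GFP control by -16.5 FPKM and lower than MLX-WT by -16, with no overlap (exact permutation p = 0.1 each, the smallest possible). MLX-WT and the GFP control overlapped (-0.455 FPKM, exact permutation p = 0.9), as did MLX shRNA and NT shRNA (-0.635, exact permutation p = 0.5), and both of these small differences changed sign with quantile normalization, to 4.13 and 3.99 FPKM. Without MLX-WT replicate 2 the first was 0.739 FPKM, and without NT shRNA replicate 2 the other was 0.0134 FPKM. NT shRNA was lower than the GFP control by -12.4 FPKM. The mean paralogue number, weighted by FPKM, was 9.045 ± 0.0603 in MLX-DN, 9.336 ± 0.0131 in MLX-WT, 9.271 ± 0.0380 in MLX shRNA, 9.078 ± 0.0306 in NT shRNA and 9.533 ± 0.0103 in the GFP control (SD, n = 3 each). It was lower than in the GFP control by -0.487 in MLX-DN, -0.196 in MLX-WT and -0.455 in NT shRNA, and higher by 0.194 in MLX shRNA than in NT shRNA, each without overlap (exact permutation p = 0.1).

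**Figure D4:**
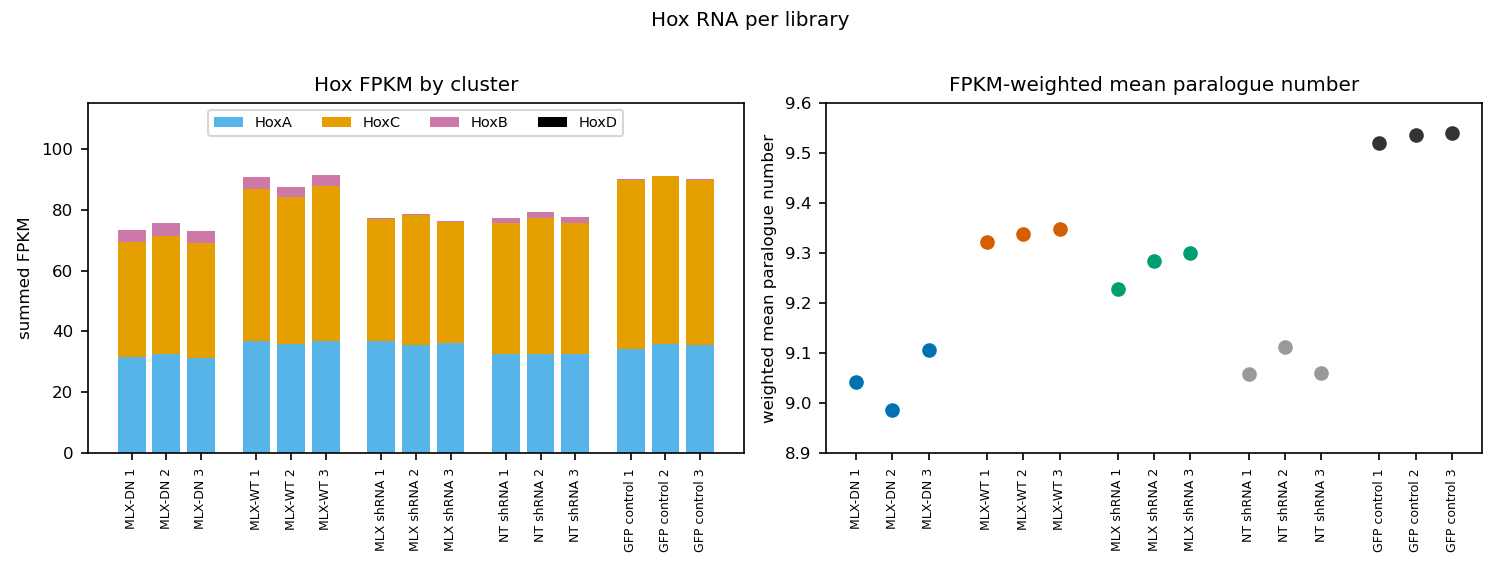
Left, summed FPKM of the Hox genes per library by cluster (stacked bars from 0), and right, the FPKM-weighted mean paralogue number per library (the axis does not start at 0). MLX-WT and the GFP control had the highest sums, HoxB is visible as a cap in 3 groups, and the weighted number ran from 8.99 in an MLX-DN library to 9.54 in a GFP control library.

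Most tested Hox genes were called in each comparison, as were most of the 11945 tested genes, so the counts say little about Hox genes as a set. They include Hoxb7, which passed the filter only through MLX-DN and MLX-WT, where it was high. Between MLX-DN and the GFP control limma called 13 of 15 (4 higher, 9 lower), 86.7%, where 81.4% of the 11945 tested genes were called, and the median log2 difference was -0.15 over the Hox genes and -0.08 over all tested genes. Those higher included Hoxa7, Hoxb7 and Hoxc4. The 9 lower were Hoxa5, Hoxa6, Hoxa10, Hoxa11, Hoxc6, Hoxc9, Hoxc10, Hoxc11 and Hoxc13. With median centring the split was 5 higher and 6 lower, with quantile normalization 5 and 5, and against NT shRNA 2 and 5. In these settings 81%, 81.1% and 69.7% of all tested genes were called. Hoxa7 lost its call without GFP control replicate 1 (adjusted p = 0.0666) or 3 (0.0613), and Hoxc6 without GFP control replicate 1 (0.0521), while Hoxa9 gained one without GFP control replicate 2 (0.0412) or MLX-DN replicate 1 (0.0414). Over all alternatives with the same control the adjusted p ran from 0.000207 to 0.0666 for Hoxa7, 0.00237 to 0.808 for Hoxc6 and 8.02e-06 to 0.227 for Hoxa9.

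Between MLX-WT and the GFP control limma called 8 of 15 Hox genes (4 higher, 4 lower), 53.3%, where 70.3% of all tested genes were called. The medians were 0.00 for the Hox genes and -0.05 for all. Hoxa7, Hoxa9, Hoxa11 and Hoxb7 were higher, and Hoxa5, Hoxc9, Hoxc11 and Hoxc13 lower. The split was 6 higher and 2 lower with median centring, 5 and 2 with quantile normalization, and 5 and 3 against NT shRNA. In these settings 69.4%, 69.8% and 69.9% of all tested genes were called. Hoxa5 lost its call without MLX-WT replicate 2 (adjusted p = 0.0899) or GFP control replicate 3 (0.0535), Hoxc9 without MLX-WT replicate 2 (0.0766) or GFP control replicate 2 (0.0998), and calls were gained by Hoxc6 without GFP control replicate 1 (0.0496) and by Hoxa6 without replicate 2 (0.0296). Their ranges over alternatives with the same control were 0.00751 to 0.152, 0.00462 to 0.286, 0.00329 to 0.406 and 0.0296 to 0.475, for Hoxa5, Hoxc9, Hoxc6 and Hoxa6 in that order.

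Between MLX shRNA and NT shRNA limma called 10 of 15 (4 higher, 6 lower), 66.7%, where 70.1% of all tested genes were called, with medians of -0.03 for the Hox genes and -0.03 for all. Hoxa7, Hoxa10, Hoxc11 and Hoxc12 were higher, and those lower included Hoxb7, Hoxc6, Hoxc9, Hoxc10 and Hoxc13. The split was 6 higher and 3 lower with median centring, 7 and 3 with quantile normalization, and 5 and 8 against the GFP control. In these settings 70.2%, 69.7% and 80% of all tested genes were called. Hoxc9 lost its call without NT shRNA replicate 2 (adjusted p = 0.0567) and Hoxc12 without MLX shRNA replicate 2 (0.0687), and Hoxa11 gained one without MLX shRNA replicate 2 (0.0471). Over alternatives with the same control their ranges were 0.00396 to 0.258 for Hoxc9, 0.00021 to 0.0687 for Hoxc12 and 0.00963 to 0.54 for Hoxa11. Hoxc10 differed by -0.11 (adjusted p = 0.00568) and was not called with either scaling (0.115 and 0.0757, range 0.00231 to 0.115).

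Between MLX-DN and MLX-WT limma called 10 of 15 (2 higher, 8 lower), where 72.1% of all tested genes were called, 33.2% higher and 38.9% lower. Hoxc4 was higher in MLX-DN by 0.36 (adjusted p = 1.48e-06), and Hoxc10, Hoxc11, Hoxa11, Hoxc6 and Hoxc9 were lower by -0.58, -0.38, -0.30, -0.25 and -0.22. Hoxa7 (-0.14), Hoxa10 (-0.10) and Hoxc12 (-0.21) were also called, but each lost its call without 1 library. This was MLX-WT replicate 1 (adjusted p = 0.0529) or 2 (0.104) or MLX-DN replicate 3 (0.0743) for Hoxa7, MLX-WT replicate 3 (0.054) for Hoxa10, and MLX-WT replicate 3 (0.0988) or MLX-DN replicate 2 (0.0787) for Hoxc12. Hoxa6 (-0.18) gained a call without MLX-DN replicate 2 (0.0212), and also when the libraries of these 2 groups alone were fitted (0.0463). The ranges over alternatives were 0.0057 to 0.127 for Hoxa7, 0.00513 to 0.054 for Hoxa10, 0.00323 to 0.133 for Hoxc12 and 0.0212 to 0.36 for Hoxa6.

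The controls also differed from each other. Between NT shRNA and the GFP control limma called 13 of 15 (6 higher, 7 lower), where 74.1% of all tested genes were called, 37% higher and 37.1% lower, with medians of -0.10 for the Hox genes and 0.00 for all. On the log2(FPKM + 2) scale, which compresses low genes, the largest differences were -0.66 for Hoxc11, -0.47 for Hoxc13, 0.40 for Hoxa7, -0.33 for Hoxc10 and 0.28 for Hoxb7 and Hoxc4. As a ratio of mean FPKM that of Hoxb7 was the largest (46.4), but it rests on 3 estimated reads in the GFP control. Per depth, its summed reads in NT shRNA were 31.0 times those of the GFP control (95% interval 10.2 to 153, counting error only). Hoxa9 and Hoxc6 were among the others called higher, and Hoxa5, Hoxa10, Hoxa11 and Hoxc9 lower. Hoxc6 lost its call without GFP control replicate 2 (adjusted p = 0.197) or 3 (0.0527) or NT shRNA replicate 1 (0.107) or 3 (0.131), and Hoxa5 without NT shRNA replicate 1 (0.0675). Hoxc9 (adjusted p = 0.047) lost it without any 1 of 9 libraries (0.051 to 0.292), and Hoxa6 (0.0552) gained one without any 1 of 5 (0.00829 to 0.0421). The ranges over alternatives were 0.0129 to 0.197 for Hoxc6, 0.00598 to 0.0936 for Hoxa5, 0.0133 to 0.292 for Hoxc9 and 0.00829 to 0.245 for Hoxa6.

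The effect of MLX shRNA against NT shRNA and that of MLX-DN against the GFP control differed for 13 of 15 Hox genes (9 higher, 4 lower, by a limma interaction term), where 74.8% of all tested genes differed, 42.8% higher and 32% lower. Without the filter limma called 25 of 39 Hox genes in MLX-DN (48.3% of all genes), 17 in MLX-WT (41%), 17 in MLX shRNA (38.3%), 13 in MLX-DN against MLX-WT (40.9%), 20 in NT shRNA (42.7%) and 21 for the difference of effects (42.6%). On the same scale the largest differences of effects were -0.94 for Hoxb7, 0.85 for Hoxc11, -0.48 for Hoxc6 and 0.45 for Hoxc10. Since both controls differed too, the interaction holds the difference of the controls as well, and the effects of construct and control cannot be told apart.

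**Figure D5:**
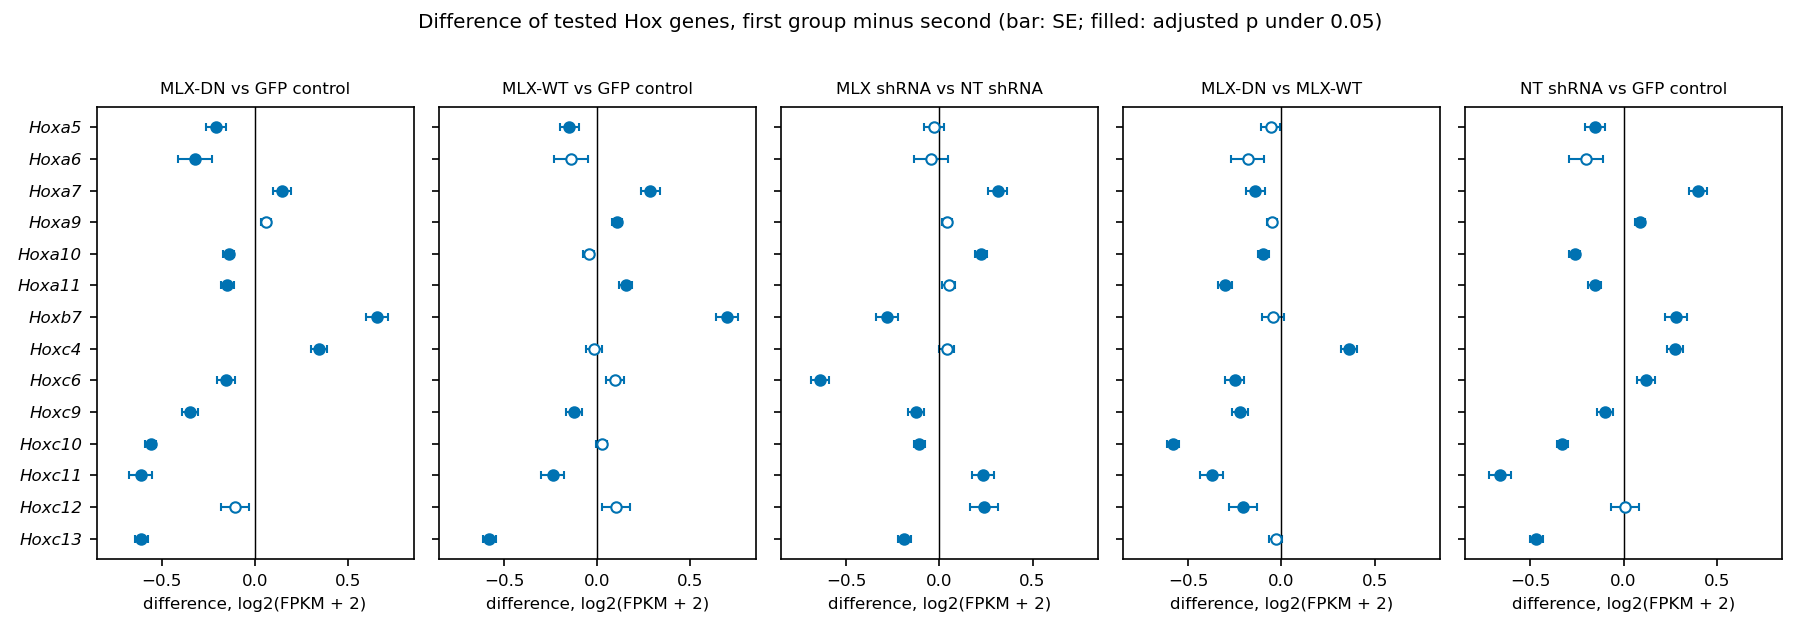
Difference on the log2(FPKM + 2) scale, first group minus second, with its SE (bar), for 14 tested Hox genes in 5 comparisons, filled where the limma adjusted p was under 0.05. Hoxb7 lies at 0.65 and 0.70 in MLX-DN and MLX-WT against the GFP control and at -0.28 in MLX shRNA against NT shRNA, and Hoxc13 lies below 0 in 4 comparisons with called differences. Hoxb7 passed the filter only through MLX-DN and MLX-WT, where it was high, so its calls are no independent support.

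Hox proteins bind DNA with partners of the PBX, MEIS and PKNOX families. Of 9 such genes 8 were tested, with 1 higher and 7 lower in MLX-DN than in the GFP control, 0 and 4 in MLX-WT, and 2 and 4 in MLX shRNA against NT shRNA, beside 32.6% and 48.8%, 27.6% and 42.7%, and 30.8% and 39.3% of all tested genes. The median log2 differences were -0.18, -0.10 and -0.03, against -0.08, -0.05 and -0.03 over all tested genes, and the last turned to 0.02 with median centring and 0.04 with quantile normalization. The most expressed were Pbx2 (mean 13.8 FPKM), Pknox1 (7.88), Pbx3 (6.35) and Pknox2 (5.97). Pbx3 averaged 5.79 FPKM in MLX-DN, 4.79 in MLX-WT, 4.61 in MLX shRNA, 6.66 in NT shRNA and 9.93 in the GFP control, and was lower by -0.62, -0.81 and -0.39 in the 3 comparisons, and called lower against either control. Meis1 was also called lower in all 3, with -0.10 in MLX shRNA, but not without MLX shRNA replicate 2 (adjusted p = 0.0738) or 3 (0.113) or NT shRNA replicate 3 (0.131), and with quantile normalization in none of the 3. Pknox2 differed by -0.99 in MLX-DN from the GFP control but by -0.01 from NT shRNA.

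Among regulators that act upstream of Hox genes, 18 genes of retinoic acid signalling, the caudal family and Gdf11 were in the table and 9 were tested. In MLX-DN 1 was higher and 8 lower, in MLX-WT 0 and 9, and in MLX shRNA 0 and 7, with medians of -0.50, -0.38 and -0.22, beside 32.6% and 48.8%, 27.6% and 42.7%, and 30.8% and 39.3% of all tested genes higher and lower. The controls were separated in the same direction, with 1 higher and 7 lower in NT shRNA than in the GFP control and a median of -0.33. Of all tested genes 37% were higher and 37.1% lower there. Crabp2, which carries retinoic acid to its receptors, averaged 38.6 FPKM in MLX-DN, 42.8 in MLX-WT, 14.4 in MLX shRNA, 42.1 in NT shRNA and 59.6 in the GFP control, and differed by -1.43 log2 in MLX shRNA (adjusted p = 3.7e-15). The receptor gene Rarg averaged 15.6 FPKM in MLX-DN, 20.5 in MLX-WT, 12.3 in MLX shRNA, 21.3 in NT shRNA and 27.3 in the GFP control, lower by -0.73, -0.38 and -0.71 in the 3 comparisons. Rara, Rxra and Gdf11 were among those called lower in all 3 as well, and Rxrb, at a mean of 18.2 FPKM, in MLX-DN and MLX-WT. Gdf11 in MLX shRNA (-0.14) lost its call without MLX shRNA replicate 1 (adjusted p = 0.142) or 3 (0.155) or NT shRNA replicate 2 (0.0511) or 3 (0.124). Against NT shRNA, MLX-WT was at 0.02 for Crabp2 (adjusted p = 0.52), -0.05 for Rarg (0.261) and -0.06 for Rara (0.075), and it was higher for Gdf11 (0.40, adjusted p = 6.98e-06). Members below the filter, which were not tested, did not all follow the tested ones. In MLX-WT and the GFP control Rarb averaged 0.996 and 0.278 FPKM, Aldh1a1 0.296 and 0.105, and Cyp26c1 0.145 and 0.201.

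Of 24 Polycomb genes, whose products keep Hox genes silent, 6 were called higher and 15 lower in MLX-DN, 2 and 12 in MLX-WT, and 3 and 12 in MLX shRNA, with medians of -0.19, -0.11 and -0.07. Of all tested genes 48.8%, 42.7% and 39.3% were called lower in these comparisons, and 32.6%, 27.6% and 30.8% higher. With median centring the counts were 8 and 12, 7 and 9, and 4 and 10, where 81%, 69.4% and 70.2% of all tested genes were called. Rbbp7 (mean 113 FPKM), Rbbp4 (99.1), Phc2 (28.7) and Bmi1 (27) were the most expressed. Ezh2, which writes the Polycomb mark, averaged 14.8 FPKM in MLX-DN, 17.3 in MLX-WT, 16 in MLX shRNA, 19.7 in NT shRNA and 21.1 in the GFP control, and was called lower in all 3 comparisons (-0.46, -0.26 and -0.27) and against the other control. Cbx6, Pcgf2, Phc1 and Rbbp7 were called lower in all 3 too, Phc1 in MLX shRNA not without MLX shRNA replicate 2 (adjusted p = 0.107) or NT shRNA replicate 2 (0.156).

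Of 13 trithorax and demethylase genes, which keep Hox genes active, 2 were called higher and 7 lower in MLX-DN, 1 and 9 in MLX-WT, and 0 and 11 in MLX shRNA, with medians of -0.22, -0.14 and -0.16, where all tested genes had medians of -0.08, -0.05 and -0.03 and the shares called lower were 48.8%, 42.7% and 39.3%. In NT shRNA 9 were higher and 1 lower than in the GFP control, where 37% and 37.1% of all tested genes were. Median centring gave 6 and 7, 1 and 6, and 1 and 9, where 81%, 69.4% and 70.2% of all tested genes were called. The most expressed were Ash2l (mean 33.8 FPKM), Dpy30 (31.9), Psip1 (31.2) and Wdr5 (21.3). Wbp7, Men1, Kdm6b, Psip1, Mll2 and Dot1l were called lower in all 3. Of the 7 insulation and cohesin genes 4 were higher and 3 lower in MLX-DN, 1 and 2 in MLX-WT, and 0 and 5 in MLX shRNA, beside the same shares of all tested genes lower and 32.6%, 27.6% and 30.8% higher, with Rad21 (mean 88.3 FPKM), Smc1a (52.0), Smc3 (26.7) and Stag2 (23.7) the most expressed, and Ctcf and Smc1a called lower in all 3. Against NT shRNA the first of these counts was 1 and 4, where 69.7% of all tested genes were called. NT shRNA itself had 5 higher and 1 lower than the GFP control, where 37% and 37.1% of all tested genes were. Over these lists and those of cofactors, upstream signals, positional factors and cluster transcripts, 26 of 86 tested genes (30.2%) were called in 1 direction in all 3 comparisons, of which 2 share the GFP control, as were 26.5% of all tested genes. Of the 26, 16 were so with both scalings, 12 against the other control, and 7 under all of these and without any 1 library.

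Other factors of position gave a mixed picture. Of 29 genes 12 were tested, with 3 higher and 6 lower in MLX-DN, 1 and 10 in MLX-WT, and 7 and 2 in MLX shRNA. Of all tested genes 32.6% and 48.8%, 27.6% and 42.7%, and 30.8% and 39.3% were higher and lower. Median centring gave 5 and 4, 1 and 5, and 7 and 2, where 81%, 69.4% and 70.2% of all tested genes were called. Tbx15 (mean 38.7 FPKM) and Irx3 (16.6) were among the most expressed. Pax7, the gene of muscle stem cells, averaged 3.88 FPKM in MLX-DN, 2.46 in MLX-WT, 4.22 in MLX shRNA, 2.83 in NT shRNA and 0.872 in the GFP control. It was called higher in all 3 comparisons (1.03, 0.64 and 0.36), but MLX-WT was lower than NT shRNA by -0.12 (adjusted p = 0.0115). Tbx18 was called lower in all 3, but in MLX-DN it was at -0.02 with median centring (adjusted p = 0.483) and above NT shRNA by 0.09 (adjusted p = 0.0039). Tbx4, a hindlimb gene, averaged 0.220 FPKM in MLX-DN, 0.454 in MLX-WT, 0.665 in MLX shRNA, 0.237 in NT shRNA and 1.08 in the GFP control, while Tbx5, its forelimb counterpart, reached 0.0038 FPKM at most and Pitx1, which acts above Tbx4 in the hindlimb, 0.0108.

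Within the clusters, 21 non-coding and neighbouring genes were in the table and 13 were tested, with 5 higher and 2 lower in MLX-DN, 3 and 3 in MLX-WT, and 4 and 4 in MLX shRNA. These are 7, 6 and 8 of 13, where 81.4%, 70.3% and 70.1% of all tested genes were called. Hoxa11as, the antisense transcript of Hoxa11, had 6.79 to 7.13 FPKM in MLX-DN, 12.4 to 13.6 in MLX-WT, 7.73 to 8.14 in MLX shRNA, 9.44 to 9.75 in NT shRNA and 13.6 to 14.8 in the GFP control, and its ratio to Hoxa11 was 0.707 ± 0.00530, 1.03 ± 0.0215, 0.779 ± 0.0329, 0.987 ± 0.00419 and 1.30 ± 0.111 in these groups in that order. Hoxa11 shares 35.0% of its exon bases with this transcript (Hoxa11os in the GENCODE annotation), so both values may share reads. Hoxa11as was lower in MLX-DN by -0.87 (adjusted p = 2.46e-12), while MLX-WT was lower than the GFP control by -0.14 (adjusted p = 0.00262, 0.0811 with median centring) and higher than NT shRNA by 0.36. Hotair, a non-coding RNA of the HoxC cluster that lies between Hoxc11 and Hoxc12, ranged from 0.885 to 1.66 FPKM. Evx1 and Evx2, at the ends of HoxA and HoxD, were listed at 0 throughout.

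The nearest expressed genes around HoxB, those with at least 1 FPKM in at least 3 libraries, did not share its split. A neighbour as low as most HoxB genes would have been left out by this filter. On one side Atp5g1 averaged 193 FPKM in MLX-DN, 219 in MLX-WT, 223 in MLX shRNA, 175 in NT shRNA and 186 in the GFP control. On the other Snx11 averaged 12.3, 12, 13.5, 11.5 and 11.7 FPKM in the same order of groups, and Cbx1 41.4, 48.4, 49.4, 43.8 and 42.0. Over the 6 nearest expressed genes, which also include Ube2z, Snf8 and Nfe2l1, the highest group mean was 1.10 to 1.32 times the lowest. Around HoxC, Calcoco1 averaged 44.1 FPKM in MLX-DN, 65.6 in MLX-WT, 47.2 in MLX shRNA, 57.3 in NT shRNA and 66.0 in the GFP control, and differed in MLX-DN by -0.56 (adjusted p = 3.15e-10). Cbx5, on the far side of HoxC, averaged 47.2 FPKM over all libraries, Cbx1 45.0 and Mtx2 50.9. Smug1, next to HoxC, was called higher in all 3 comparisons (0.19, 0.10 and 0.29), but in 1 of the 3 against the other control.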

How the data were processed

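RNA-seq values of 15 libraries were used as deposited. The authors' table holds log2 values of FPKM plus an offset, which reads as 2 from its lowest value, so 2 raised to the deposited log2 value, less 2, gave FPKM. With this reading FPKM times transcript length summed to 0.916 to 0.947 M per library, and to 0.458 to 0.473 M if FPKM were halved. Per the submitters' processing notes the tools and build named are CASAVA, TopHat2, STAR and mm9. The counting tool, annotation and use of strand are not given in the sources used here.

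Genes with 1 transcript length gave the depth of each library, since their low FPKM values lie at whole multiples of 1 read. The depth that fitted whole reads best was taken. At this depth 66.5 to 70.5% of these values fell within 0.05 of a whole read, against 23.5 to 28.7% at depths a few percent away. As the same values chose the depth, this gap is no independent check. The depth was 36.9 to 82.6 M reads per library. Reads for HoxB were given for 6 genes, where 23 of 23 values of 1 to 12 reads lay within 0.15 of a whole read. For Hoxb9 3 of 5 such values did so and for Hoxb13 3 of 11, and neither is among the 6. The 23 of 23 is therefore no independent check of the reads. Intervals and floors cover counting error only.

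Genes with at least 1 FPKM in at least 3 libraries, 11945 of 23352, were tested with limma 3.58.1 in R 4.3.3, by moderated contrasts of 5 groups on the deposited log2 scale with a trend in the variance, and p-values were adjusted by the Benjamini-Hochberg method over all of them. A gene was called at an adjusted p under 0.05. Fold changes on this scale understate those of low genes. Sums were compared by an exact permutation test (scipy 1.17.1, two-sided). Per-library values were given for the 12 members of highest mean among those called, and for Hoxb7. Those of Hoxb4, which lies below the filter, were added because it was the exception within HoxB. The fits were tested on simulated data. Members and lists were chosen with earlier results of these data known, and the results of some single genes are not reported here, though the genes count in the fits, sums and counts. Exon overlaps came from GENCODE M21 and promoters from RefSeq, which held 22 of the 39 genes. MLX-DN, MLX-WT and MLX shRNA were each set against their control, MLX-DN against MLX-WT, and NT shRNA against the GFP control. Alternatives were other offsets, filters and scalings, the other control, the replicate number as a block, and the removal of 1 library at a time.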

Additional observations from a re-analysis of the deposited data

Results flagged for a closer look

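For 13 of the 15 tested Hox genes the effect of MLX shRNA (against NT shRNA) differed from that of MLX-DN (against the GFP control) by a limma interaction term at an adjusted p under 0.05. The same was so for 74.8% of all 11945 tested genes, so the count says little about Hox genes as a set. The term also holds the difference between the controls. The MLX shRNA effect minus the MLX-DN effect, in log2, was above 0 for Hoxa5 (0.18), Hoxa7 (0.167), Hoxa10 (0.366), Hoxa11 (0.2), Hoxc9 (0.223), Hoxc10 (0.453), Hoxc11 (0.848), Hoxc12 (0.348) and Hoxc13 (0.423). Those below 0 included Hoxb7 (-0.936), Hoxc4 (-0.305) and Hoxc6 (-0.485), of which Hoxb7 passed the filter only through MLX-DN and MLX-WT, where it was high. Without 1 library Hoxa5 lost its call for 7 libraries (limma adjusted p = 0.0571 to 0.108), which were MLX shRNA replicates 1 and 3, GFP control replicates 1 and 3, MLX-DN replicate 3 and NT shRNA replicates 1 and 3. Hoxa7 lost it for 9 (0.0514 to 0.127), which were MLX shRNA replicates 1 to 3, MLX-WT replicate 1, GFP control replicate 2, MLX-DN replicates 2 and 3 and NT shRNA replicates 2 and 3. Over all alternatives the adjusted p ran from 0.0125 to 0.154 for Hoxa5 and from 0.0252 to 0.297 for Hoxa7.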

How the results depend on the processing

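Of 2286 recomputed values for 84 gene results, 149 lost their call and 36 gained one. Another 11 changed sign where the main or the alternative fit called the gene. The other 2090 stayed on their side of the threshold, some with a change of sign where neither fit called the gene. The cause of these changes was not tested. Without the filter the numbers of called Hox genes were 25 (MLX-DN against the GFP control), 17 (MLX-WT against the GFP control), 17 (MLX shRNA against NT shRNA), 20 (NT shRNA against the GFP control) and 21 (difference of effects), since 39 genes were then tested. Of all genes 48.3%, 41%, 38.3%, 42.7% and 42.6% were called there. With an offset of 0.1 and no filter, chosen after seeing the data, the numbers of Hox genes were 25, 16, 17, 20 and 21 in the same order. With a difference of at least log2(1.5) asked for as well, on the log2(FPKM + 2) scale, where low genes with larger FPKM ratios fall short of it, they were 3, 1, 1, 1 and 2, and 0 for MLX-DN against MLX-WT. Against NT shRNA, without this limit, MLX-DN had 7, where 69.7% of all tested genes were called. For the offset of 0.1 and the log2(1.5) limit no share of all genes is given, so those counts say little about Hox genes as a set.

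Leaving out each library gave 11 to 14 called Hox genes for MLX-DN against the GFP control, 6 to 9 for MLX-WT, 8 to 10 for MLX shRNA, 8 to 10 for MLX-DN against MLX-WT, 10 to 13 for NT shRNA and 11 to 13 for the difference of effects. In the fits of all 15 libraries 81.4%, 70.3%, 70.1%, 72.1%, 74.1% and 74.8% of all tested genes were called. Total Hox FPKM differed by -17.2 to -16.0 (MLX-DN minus GFP control), -1.18 to 0.739 (MLX-WT minus GFP control), -1.15 to 0.0134 (MLX shRNA minus NT shRNA), -17.2 to -15.3 (MLX-DN minus MLX-WT) and -13.0 to -12.0 (NT shRNA minus GFP control). The weighted paralogue number differed by -0.518 to -0.458, -0.202 to -0.189, 0.179 to 0.215, -0.322 to -0.262 and -0.473 to -0.445 in the same order.

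The total of MLX-WT minus GFP control changed sign with quantile normalization (4.13) and without MLX-WT replicate 2 (0.739). That of MLX shRNA minus NT shRNA did so with tested genes alone (0.356), without Hoxc10 (0.585), with quantile normalization (3.99) and without NT shRNA replicate 2 (0.0134). Against the other control, log2 differences called against at least 1 of the controls changed sign in MLX-DN for Hoxa7 (-0.254), Hoxa10 (0.119), Hoxa11 (0.006) and Hoxc11 (0.049), in MLX-WT for Hoxa5 (0.003), Hoxa7 (-0.114), Hoxa10 (0.216) and Hoxc11 (0.424), and in MLX shRNA for Hoxa10 (-0.038), Hoxa11 (-0.103) and Hoxc11 (-0.429). Differences called against neither control also changed sign, in MLX-DN for Hoxa9 (-0.029) and in MLX-WT for Hoxa6 (0.06) and Hoxc6 (-0.027).

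Libraries of the same replicate number deviated together in 4 of 30 pairs between groups (r over 0.1, range -0.0933 to 0.182). Those of other numbers did so in 3 of 60 (range -0.276 to 0.243). The median r was 0.029 and -0.00531, and the numbers were not taken to pair the samples. With the replicate block 13, 8, 10, 10, 11 and 12 Hox genes were called in MLX-DN, MLX-WT, MLX shRNA, MLX-DN against MLX-WT, NT shRNA and the difference of effects, and Hoxa5 (difference of effects, limma adjusted p = 0.0517, range 0.0125 to 0.154), Hoxc6 (NT shRNA, 0.0548, 0.0129 to 0.197) and Hoxc9 (NT shRNA, 0.0518, 0.0133 to 0.292) lost their calls. In the fits without the block 81.4%, 70.3%, 70.1%, 72.1%, 74.1% and 74.8% of all tested genes were called, in that order.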

Other observations

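A search of all 23352 genes, by a rule set after the HoxB values were seen, asked for at least 3-fold between every library of MLX-DN, MLX-WT and NT shRNA, each at 0.05 FPKM or more, and every library of MLX shRNA and the GFP control. It found 12 genes, of which 6 were Hoxb2, Hoxb3, Hoxb5, Hoxb6, Hoxb7 and Hoxb8. The others were Aoc3, Atp8a1, Cxcl16, F13a1, Fbln7 and Kng2. Fbln7, which encodes a fibulin of the extracellular matrix, had 3.41 to 3.66 FPKM in MLX-DN, 2.87 to 3.28 in MLX-WT, 0.137 to 0.167 in MLX shRNA, 3.15 to 3.56 in NT shRNA and 0.724 to 0.917 in the GFP control. Cxcl16, a chemokine gene, had 0.820 to 1.13 FPKM in MLX-DN, 0.714 to 0.923 in MLX-WT, 0.121 to 0.216 in MLX shRNA, 0.741 to 1.16 in NT shRNA and 0.152 to 0.201 in the GFP control. F13a1, which encodes a subunit of a clotting factor, averaged 0.706 FPKM in MLX-DN, 2.30 in MLX-WT, 0.102 in MLX shRNA, 0.719 in NT shRNA and 0.171 in the GFP control. The opposite pattern was found for 2 genes, Mc4r and Try5. Mc4r, a melanocortin receptor gene, averaged 0.0544 FPKM in MLX-DN, 0.119 in MLX-WT, 1.06 in MLX shRNA, 0.165 in NT shRNA and 0.728 in the GFP control.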
